A study of Mus musculus with 192 samples.

Results

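Genes that mark dividing or surviving cells, Mki67, Birc5, Pcna, Ccnd1 and Bcl2, were followed across 192 single cells from mouse skin wounds. They were taken by name from a panel of 96 TaqMan assays for 95 genes, and all 5 were found. The cells came from recipient mice with an endothelial knockout of the chemokine Cxcl12 (EKO) and from wild-type (WT) recipients. Every recipient had been parabiosed, that is surgically joined so that the circulations mix, to a donor carrying green fluorescent protein (GFP). All cells were lineage-negative, GFP-positive cells sorted from dorsal wounds, so the genotype names the host of the wound and the sort names the donor as the source of the cell. The Cre driver of the knockout, the day after wounding, the number and age of the animals and the lineage antigens remained unstated in the sources used here. Each genotype gave 96 cells, 48 per set (sets A and B), and on every chip the higher cell numbers were EKO and the lower ones WT. Genotype and position on the chip therefore cannot be told apart. With no animal named, each genotype counted as 1 sample: no test between genotypes was possible, and the 95% intervals below (exact, Clopper-Pearson) reflect counting error over cells alone.

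Mki67 encodes Ki-67, a nuclear protein that coats mitotic chromosomes and is present in cycling but not in resting cells. Birc5 encodes survivin, which serves in the chromosomal passenger complex at mitosis and belongs to the inhibitor of apoptosis family. Pcna encodes the sliding clamp of DNA polymerases, needed for replication and also for repair. Ccnd1 encodes cyclin D1, which drives the G1 phase with its kinase partners in response to growth signals. Bcl2 encodes a mitochondrial inhibitor of apoptosis. Messages for Ki-67 and survivin are low in G1 and high towards mitosis in many cell types, whereas cyclin D1 answers to growth factors outside that programme.

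The promoters of Mki67 and Birc5 are shown because these were the 2 genes detected together. They come from RefSeq (GRCm38.p6), run up to 250 bases before the start site of the promoter table, and are given 5′ to 3′ on the strand of the gene. Capitals mark TTTGAA, the core of the cell cycle homology region found in many late cell cycle promoters, and CCAAT, in either orientation.

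Mki67, chr7:135716451-135716629, minus strand: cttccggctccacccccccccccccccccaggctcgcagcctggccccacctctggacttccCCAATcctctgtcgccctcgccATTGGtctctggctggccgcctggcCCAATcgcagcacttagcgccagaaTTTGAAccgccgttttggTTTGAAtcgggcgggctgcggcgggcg

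Birc5, chr11:117848987-117849236, plus strand: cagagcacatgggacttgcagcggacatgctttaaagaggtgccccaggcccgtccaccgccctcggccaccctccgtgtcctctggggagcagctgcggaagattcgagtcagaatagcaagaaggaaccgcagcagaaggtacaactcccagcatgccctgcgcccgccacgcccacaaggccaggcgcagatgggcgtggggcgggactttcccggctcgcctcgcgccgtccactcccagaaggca

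The Mki67 sequence is cut to the 179 bases that lie outside the annotated gene. It holds 2 copies of TTTGAA, at -116 and -98 from the start site, and 3 copies of CCAAT, 1 of them on the opposite strand. The 250 bases of Birc5 hold 0 copies of either. The same window holds 1 CCAAT in Pcna and 1 TTTGAA in Bcl2. Across 32851 mouse promoters, 15.99% hold TTTGAA, 33.8% CCAAT and 5.55% both, searched on both strands, where the motifs share no overlap in the sequences printed here. A match is a description of letters and no evidence of binding.

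The deposited value is a cycle threshold (Ct), the PCR cycle at which a reaction becomes visible: a lower Ct is a higher level, 1 cycle is about 1 doubling, and 40 means not detected. Of 18432 reactions, 5580 were detected (30.3%). The 170 cells with at least 10 detected assays were kept, 77 from EKO and 93 from WT recipients, and the 22 others held 3 Pcna detections and none of the other members. EKO cells had a median of 34 detected assays and WT cells 21, a difference in yield that touches every share below. Shares are therefore also given for the 95 cells with at least 24 assays, 53 EKO and 42 WT, where the medians were 45 and 46.5. Cells with a Col1a1 Ct below 16 were called collagen-high (46 cells), the remaining cells with any Ptprc, the pan-leukocyte CD45 gene, Ptprc-detecting (71), and the rest neither (53). By that rule the classes differ in Col1a1, which reached at most Ct 14.3 in collagen-high cells and started at 17.04 in Ptprc-detecting ones. Of the 46 collagen-high cells, 31 also detected Ptprc, so the classes do not part all collagen from all CD45 message. Doublets were not called. The labels call the cells recruited progenitors, and over all kept cells Ptprc was detected in 102 and Col1a1 in 94. An assay counts below as higher or lower between groups of cells when its share differs by at least 10 percentage points and set A and set B share the sign, a rule of size and not a test. A share of 0 is given with the limit that 3 counts of the cells would set, and with the exact upper bound where the interval is shown.

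Mki67 and Birc5 were detected in few cells, and largely in the same ones. Mki67 was detected in 27 of 170 kept cells (15.9%, 10.7 to 22.3%), with a Ct of 14.8 at the lowest, 17.3 at the median and 20.8 at the highest. Birc5 was detected in 29 (17.1%, 11.7 to 23.6%), from Ct 13.5 over a median of 15.8 to 19.1. Both were detected in 23 cells, Mki67 alone in 4, Birc5 alone in 6 and neither in 137, where the product of the separate shares would give 4.61 cells with both. The phi coefficient of the pair was 0.79 over the 170 cells and 0.80 over the 95 cells with at least 24 assays. That filter kept all 23 cells with both genes, and the part of yield in phi was not tested. Birc5 was found in 85.2% of cells with Mki67 and in 4.20% of cells without it, a difference of 80.99 points (set A 73.6, set B 94.5).

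The 23 cells with both genes are called cycling from here on, by detected message and with no measure of division. In them Mki67 ran from Ct 14.8 to 20.8 (median 16.8) and Birc5 from 13.5 to 16.98 (median 15.4). The levels of the 2 genes moved together over these 23 cells, with a Pearson r of 0.79 on Ct and 0.77 after each cell's own median Ct was subtracted. The cells share 2 chips and differ in total RNA, and Birc5 also followed Ptprc (r = 0.82 over 20 cells) and Actb (0.69 over 23), so the correlation is not particular to the pair.

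The 10 cells with only 1 of the 2 genes were of mixed class. The 6 with Birc5 alone had Ct 16.9, 17.5, 18.8, 18.9, 18.99 and 19.1, at or beyond the weak end of the cycling cells. Of these 6 cells, 5 were collagen-high, 3 of them EKO and 2 WT, and the last was Ptprc-detecting. The 4 with Mki67 alone had Ct 18.99, 19.7, 20.3 and 20.7, near the weak end of cycling cells, and all 4 lay in set A. Of these 4, 2 were Ptprc-detecting, a WT cell with 46 detected assays and an EKO cell with 70. The other 2 fell in neither class, a WT cell with 17 assays and an EKO cell with 11 that did not detect Pcna.

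**Figure D1:**
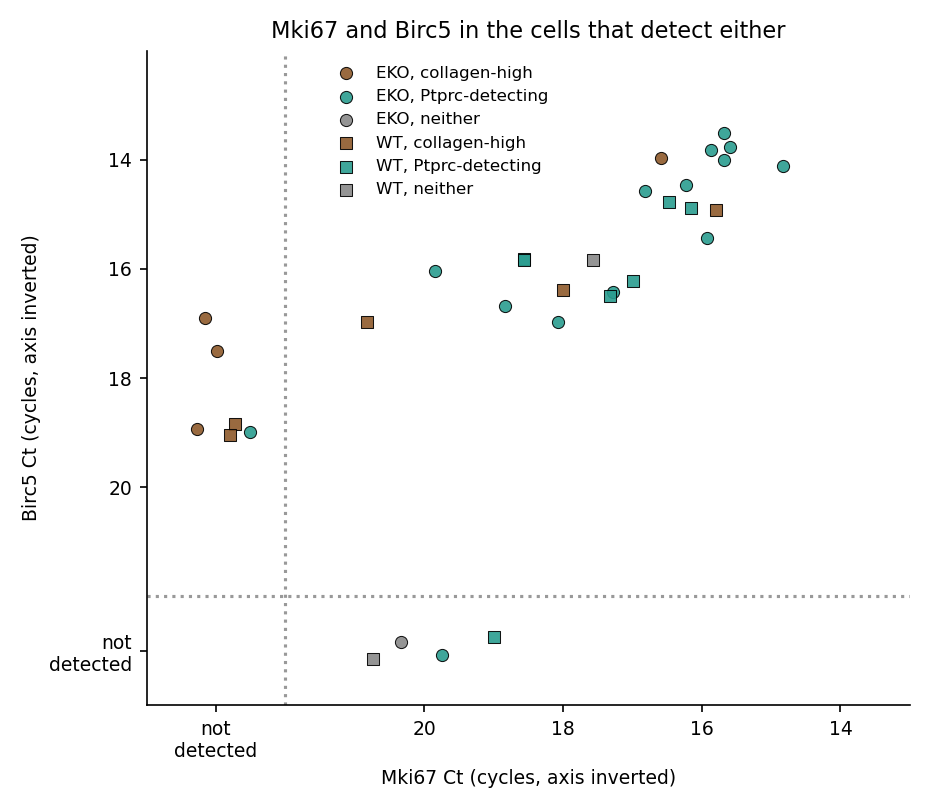
Ct of Mki67 (x axis) against Birc5 (y axis) in the kept cells that detect at least 1 of them, both axes in cycles and inverted so that high levels lie at the upper right. Circles are EKO and squares WT cells, coloured by class; cells without a gene sit in the "not detected" strips with random offset. The 23 cells with both genes form a diagonal, mostly Ptprc-detecting, and 5 of the 6 cells with Birc5 alone are collagen-high.

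By detection the members ranked Pcna (160 of 170 cells, 94.1%, 89.4 to 97.1%), Bcl2 (47 cells, 27.6%, 21.1 to 35.02%), Ccnd1 (31 cells, 18.2%, 12.7 to 24.9%), Birc5 and Mki67. The last 3 differed by less than their intervals. Levels are not ranked between genes, because a Ct depends on the assay. Among detecting cells Pcna spanned the widest range, Ct 12.9 to 29.2 with a median of 18.4. Bcl2 stayed within 16.6 to 22.6 (median 19.4), late and narrow, and Ccnd1 ran from 14.9 to 27.3 (median 19.7).

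**Figure D2:**
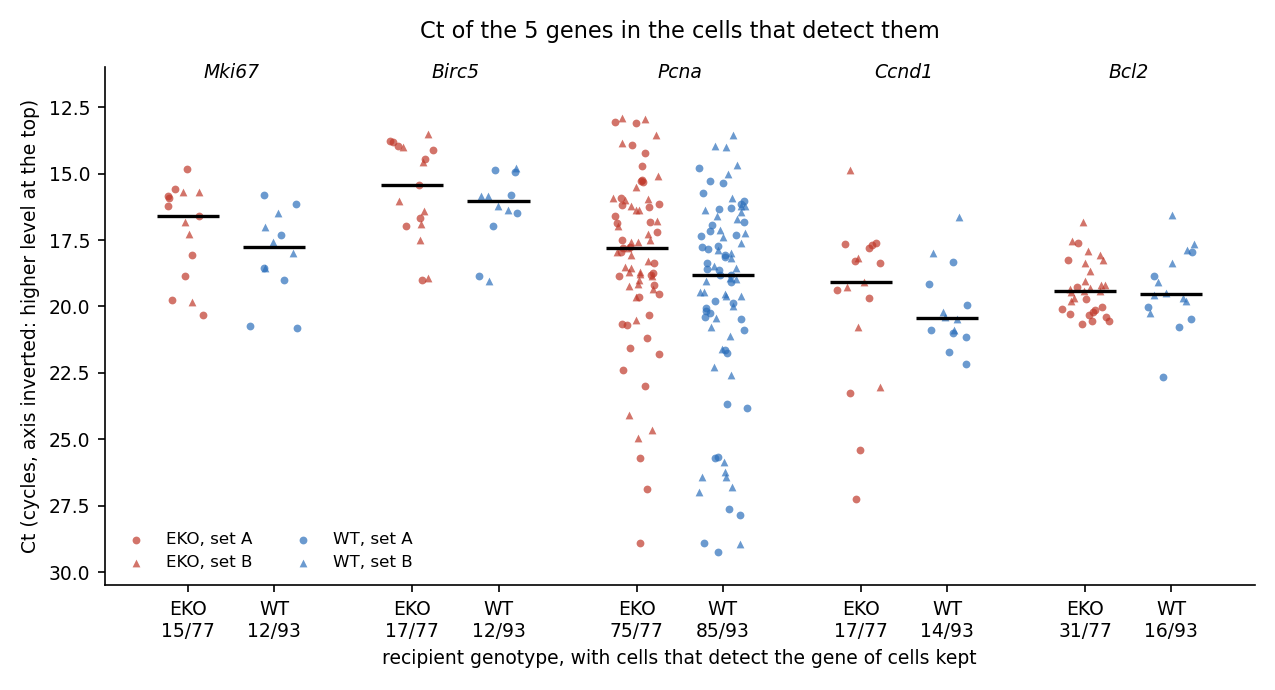
Ct (cycles, inverted axis) of the 5 genes in every kept cell that detects them, EKO left of WT, circles for set A and triangles for set B; black lines are medians and the fractions under the axis count detecting cells of kept cells. Bcl2 medians lie at 19.4 in EKO and 19.5 in WT cells while the number of detecting cells differs, 31 of 77 against 16 of 93.

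Cycling cells lay mainly in the Ptprc-detecting class. Of the collagen-high cells 4 of 46 were cycling (8.70%, 2.42 to 20.8%), against 18 of 71 Ptprc-detecting cells (25.4%, 15.8 to 37.1%). In neither class 1 of 53 was. The difference between collagen-high and Ptprc-detecting cells was -16.7 points (set A -10.8, set B -23.2). Collagen-high cells detected a median of 52 assays and Ptprc-detecting cells 28, and the part of yield in this difference was not tested. All 46 collagen-high cells passed the stricter filter, and at that filter the shares were 8.70% against 18 of 42 (42.9%, 27.7 to 59.04%). All 23 cycling cells detected at least 30 assays (median 37), so the stricter filter removed only cells that were not cycling. The Ptprc-detecting share rose with it, from 18 of 71 to 18 of 42.

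By single member, Mki67 was lower in collagen-high cells than in Ptprc-detecting cells by the size rule (8.70% against 28.2%). Bcl2 (45.7% against 22.5%) and Ccnd1 (36.96% against 15.5%) were higher. Across the 94 assays other than Col1a1 and Ptprc, 7.45% were lower and 55.3% higher in this comparison, so the higher 2 of 5 members are no more than the panel as a whole. Behind the stricter filter, Mki67 (8.70% against 47.6%) and Birc5 (19.6% against 45.2%) were both lower, against 12.8% of the panel. Ccnd1 was then the 1 member that was higher, by 13.1 points, against 44.7% of the panel, and Bcl2 differed by 7.56 points with opposite signs in the sets.

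The 4 collagen-high cycling cells were 1 EKO and 3 WT cells. Their Col1a1 Ct was 8.57 in the EKO cell and 7.72, 10.8 and 13.6 in the WT cells, all strong. Mki67 stood at Ct 16.6 in the EKO cell and at 15.8, 20.8 and 17.998 in the WT cells, in the same order. Of these 4, 2 WT cells also detected Ptprc, at Ct 14.9 and 15.3, and 2 cells detected neither Ptprc nor Cxcr4 nor Cd48. Both kinds of collagen-high cell, with and without Ptprc, were thus among the cycling cells.

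By recipient genotype, 13 of 77 EKO cells were cycling (16.9%, 9.31 to 27.1%) and 10 of 93 WT cells (10.8%, 5.28 to 18.9%). The intervals overlap widely. In set A the counts were 8 of 39 EKO cells against 5 of 48 WT cells, and in set B 5 of 38 against 5 of 45. Behind the stricter filter 24.5% of EKO and 23.8% of WT cells were cycling, differing by 11.2 points within set A and by -9.92 within set B.

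Within Ptprc-detecting cells, 12 of 36 EKO cells were cycling (33.3%, 18.6 to 50.97%) against 6 of 35 WT cells (17.1%, 6.56 to 33.6%). That difference of 16.2 points was present in both sets (16.8 and 15.7). It was not seen with at least 24 assays, where the counts were 12 of 28 EKO cells and 6 of 14 WT cells, 42.9% each. The median yield of the class was 33.5 assays in EKO and 36.5 in WT cells at that filter, so the floor does not match the genotypes exactly. The filter removed 8 EKO and 21 WT cells of the class, none of them cycling. In collagen-high cells, 1 of 21 EKO cells and 3 of 25 WT cells were cycling.

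**Figure D3:**
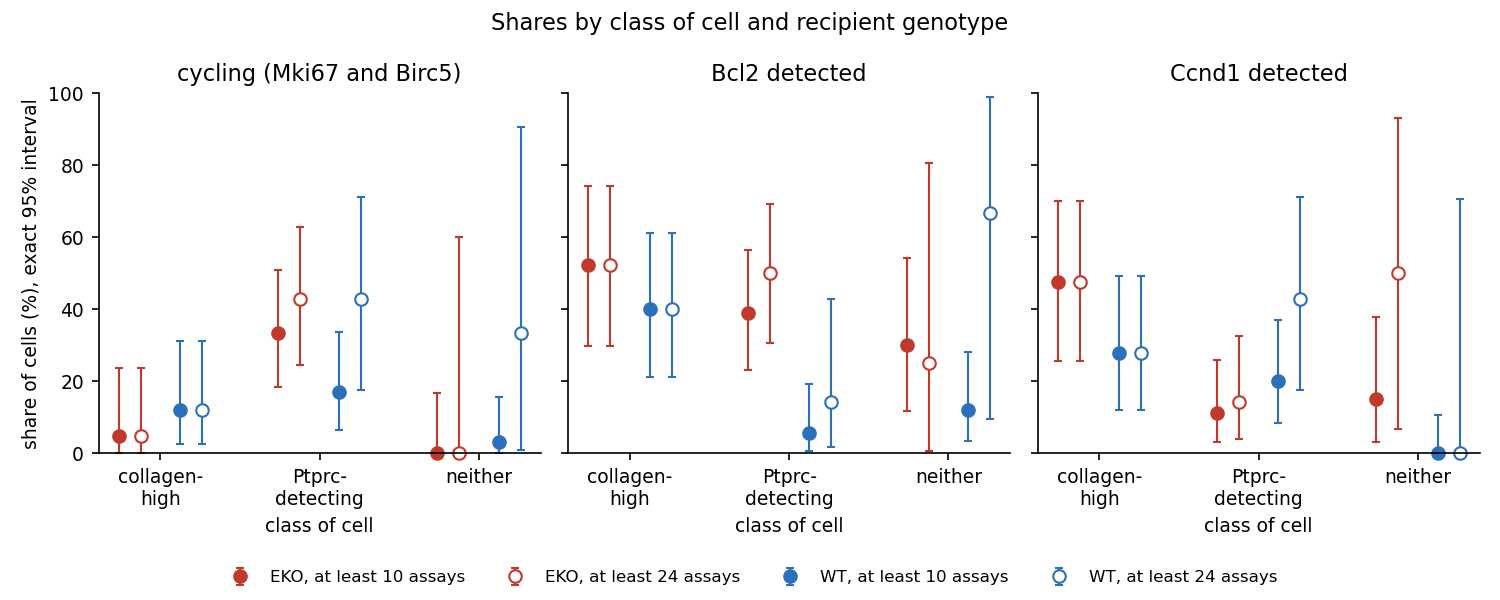
Share of cells (%) that are cycling, detect Bcl2 or detect Ccnd1, by class of cell, EKO left of WT; filled points are cells with at least 10 assays, open points cells with at least 24, bars are exact 95% intervals. In Ptprc-detecting cells the open cycling points of EKO and WT coincide at 42.9%, while Bcl2 stays at 50% in EKO against 14.3% in WT; the open points of the class neither rest on 7 cells.

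In level, cycling EKO cells had somewhat lower Ct than cycling WT cells for both defining genes. Mki67 had a median Ct of 16.2 over 13 EKO cells (SD 1.45) and 17.4 over 10 WT cells (SD 1.47), a difference of -1.21 cycles (-1.25 in set A, -0.75 in set B). Birc5 had 14.5 in EKO (SD 1.24) and 15.8 in WT cycling cells (SD 0.75), a difference of -1.37 (-1.52 and -1.28). For Pcna it was -0.44. The Mki67 difference was smaller than the SD in either genotype, and the Birc5 difference was larger than both SDs. The ranges overlapped for both genes. The genotypes also differed in class, with 12 of the 13 EKO and 6 of the 10 WT cycling cells Ptprc-detecting. Over all Mki67-detecting cells of that class, 13 EKO and 7 WT, the Mki67 difference was -1.10 cycles (-1.87 in set A, -0.18 in set B). For Birc5, over 13 EKO and 6 WT cells, it was -1.26 (-0.86 and -1.28).

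Pcna was detected in nearly every cell, and its median level was higher in cycling cells, with overlapping ranges. All 23 cycling cells detected it, at Ct 12.9 to 17.6 with a median of 15.01, against 13.1 to 29.2 with a median of 18.8 in 137 of the 147 other cells. Relative to each cell's own median Ct, Pcna stood at -3.56 in cycling and 0 in other cells, where negative is a higher level. Within the Ptprc-detecting class the medians were 14.7 and 19.6, a difference of -4.96 cycles (-5.18 in set A, -4.91 in set B). Behind the stricter filter the cycling cells of that class kept 14.7 and the 22 other detecting cells had 17.7. In collagen-high cells the medians were 15.3 over 4 cycling and 17.2 over 42 other cells.

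**Figure D4:**
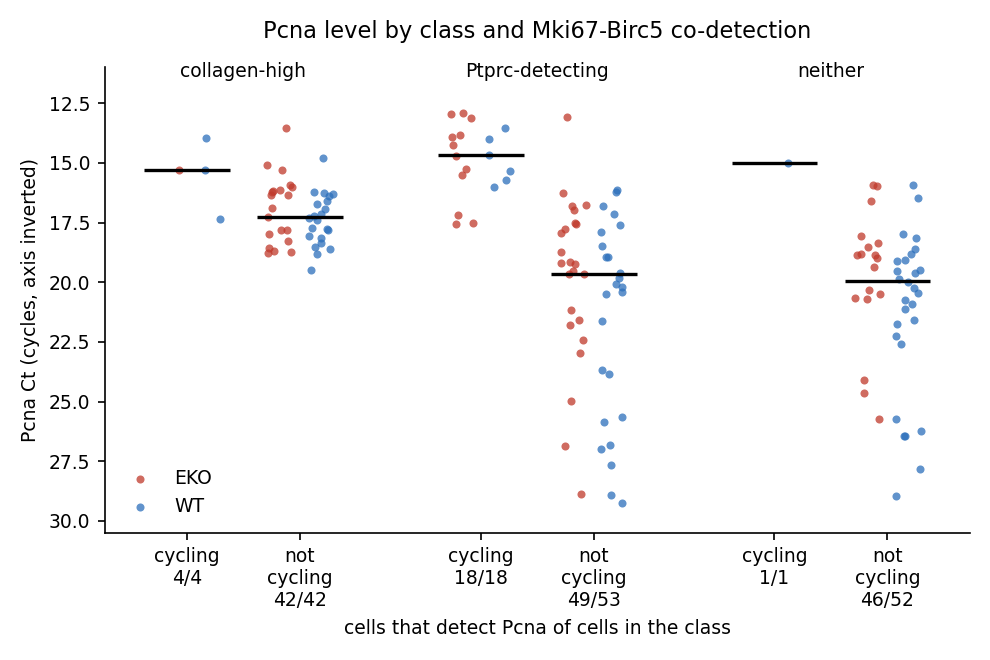
Pcna Ct (cycles, inverted axis) by class of cell and by co-detection of Mki67 and Birc5, red for EKO and blue for WT cells; lines are medians and fractions count cells that detect Pcna. Cycling Ptprc-detecting cells lie between Ct 12.9 and 17.6, and the other cells of that class spread down to 29.2.

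Other messages were also strong in cycling cells, which bears on the Pcna values. Actb, a cytoskeletal reference gene, had a median Ct of 9.13 in cycling and 10.2 in other Ptprc-detecting cells with at least 24 assays. Ptprc itself had 14.1 and 17.03 in the same cells, while B2m, the light chain of MHC class I, had 13.4 in both. The part of total RNA per cell in the Pcna difference was not tested beyond the subtraction of the own median.

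Bcl2 was the 1 member of 5 that met the size rule between genotypes. As 20.8% of the 96 assays were higher in EKO cells, that count is no more than the panel as a whole. It was detected in 31 of 77 EKO cells (40.3%) and 16 of 93 WT cells (17.2%), apart by 23.4 points within set A and by 22.5 within set B. Mki67, Birc5, Pcna and Ccnd1 were 6.005 to 9.17 points higher in EKO cells, short of the rule. For Pcna the sign turned with no filter on cells, at 79.2% of EKO and 90.6% of WT cells. With at least 24 assays, Bcl2 was in 26 of 53 EKO cells (49.1%, 35.1 to 63.2%) compared with 14 of 42 WT cells (33.3%, 19.6 to 49.5%). It was again the 1 member of 5, where 4.17% of the panel was higher, though the gap was 23.2 points in set A but 3.57 in set B. The Bcl2 level in detecting cells barely differed, with medians of Ct 19.4 over 31 EKO cells (SD 1.01) and 19.5 over 16 WT cells (SD 1.46).

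In Ptprc-detecting cells Bcl2 differed between genotypes in both sets and at both filters. It was found in 14 of 36 EKO cells (38.9%, 23.1 to 56.5%) compared with 2 of 35 WT cells (5.71%, 0.700 to 19.2%). Set A gave 5 of 22 EKO and 0 of 20 WT cells, a count of 0 that allows up to 15% (exact bound 16.8%), and set B gave 9 of 14 EKO and 2 of 15 WT cells. At least 24 assays left 14 of 28 EKO (50%, 30.6 to 69.4%) compared with 2 of 14 WT cells (14.3%, 1.78 to 42.8%), 33.3 (set A) and 35.9 (set B) points apart. In collagen-high cells the shares were 11 of 21 EKO (52.4%) and 10 of 25 WT cells (40%). There the sets pointed in opposite directions, with EKO minus WT at 40.2 points (set A) and -12.7 points (set B). In the class neither it was 6 of 20 EKO (30%) and 4 of 33 WT cells (12.1%), and 1 of 4 EKO against 2 of 3 WT cells with at least 24 assays. The difference between the classes was not tested.

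Within Ptprc-detecting cells 4 of the 5 members (Mki67, Birc5, Pcna and Bcl2) were higher in EKO cells by the size rule, where 35.4% of the panel was. Behind the stricter filter 1 of 5 was higher, Bcl2, against 13.5% of the panel. For Mki67 the sign turned there, with 46.4% of EKO and 50% of WT cells, -3.57 points (3.33 in set A, -11.5 in set B). Birc5 was 3.57 points apart, with opposite signs in the sets (15.8 in set A, -11.5 in set B), and Pcna was 25 points apart in set A, with no difference within set B. Ccnd1 was then the 1 member that was lower, against 10.4% of the panel.

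Bcl2 was detected more often in cycling cells than in the others, and 10 of the 13 cycling cells with Bcl2 were EKO cells. It was found in 13 of 23 cycling cells (56.5%, 34.5 to 76.8%) and in 34 of 147 others (23.1%, 16.6 to 30.8%). Of the 94 assays other than the defining pair, 28.7% were higher in cycling cells. At 24 or more assays the others stood at 27 of 72 (37.5%), a difference of 19.02 points (18.4 in set A, 22.8 in set B), where 8.51% of the panel was higher. Among cycling cells Bcl2 was in 10 of 13 EKO cells (76.9%, 46.2 to 94.96%) compared with 3 of 10 WT cells (30%, 6.67 to 65.2%). By set these were 5 of 8 EKO against 1 of 5 WT cells in set A, and 5 of 5 against 2 of 5 in set B. The intervals overlap. Among the other cells with at least 24 assays Bcl2 was in 16 of 40 EKO cells (40%) and 11 of 32 WT cells (34.4%).

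In the Ptprc-detecting class, 9 of 12 cycling EKO cells and 1 of 6 cycling WT cells detected Bcl2. Among the other cells of that class with at least 24 assays the counts were 5 of 16 EKO and 1 of 8 WT cells. Taken over genotypes, Bcl2 was in 10 of 18 cycling and 6 of 24 other cells of the class, 30.6 points apart (32.3 and 29.5 by set). It was the 1 of 3 members not used in the definition that was higher there, against 11.7% of the panel, and 0 of 3 were lower, against 19.1%. The level of Bcl2 differed by 0.04 cycles between cycling and other cells, at medians of Ct 19.5 over 13 and 19.4 over 34 cells.

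Over both genotypes Ccnd1 was detected more often in collagen-high than in Ptprc-detecting cells, and its shares in cycling and other cells lay within each other's intervals. It was found in 5 of 23 cycling cells (21.7%, 7.46 to 43.7%) and 26 of 147 others (17.7%, 11.9 to 24.8%). With at least 24 assays it was lower in cycling cells, 5 of 23 against 24 of 72 (33.3%), where 36.2% of the panel was lower. Collagen-high cells detected it in 10 of 21 EKO cells (47.6%, 25.7 to 70.2%) compared with 7 of 25 WT cells (28%, 12.1 to 49.4%). Their Ct ran from 14.9 to 25.4 over the 10 EKO cells (median 18.6) and from 20.2 to 22.2 over the 7 WT cells (median 20.99). The EKO cells thus held both the strongest and the weakest signals, and the ranges overlapped.

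In Ptprc-detecting cells Ccnd1 was in 4 of 36 EKO cells (11.1%, 3.11 to 26.1%) compared with 7 of 35 WT cells (20%, 8.44 to 36.9%). The sets pointed in opposite directions, with EKO minus WT at 3.18 (set A) and -26.7 points (set B). With at least 24 assays it was in 4 of 28 EKO (14.3%) and 6 of 14 WT cells (42.9%), a difference of -28.6 points, set A -10.8 and set B -50. Among WT cells alone that share was above the 28% of collagen-high cells. Ccnd1 and Bcl2 were seldom in the same Ptprc-detecting cell. Of the 42 with at least 24 assays, 1 detected both, 9 Ccnd1 alone, 15 Bcl2 alone and 17 neither (phi -0.32). The product of the shares gives 3.81 cells with both. Over all 71 cells of the class it gives 2.48, against 1 seen (phi -0.14), and over the 170 kept cells phi was 0.12. The shares of Ccnd1 and Bcl2 differed between genotypes in opposite directions in this class, and the part of this in phi was not tested. In collagen-high cells 9 of 46 detected both, against 7.76 from the product of the shares.

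Several other genes were detected in most of the cycling Ptprc-detecting cells. Of the 18, 17 detected Cxcr4, the signalling receptor of Cxcl12, against 12 of 24 other Ptprc-detecting cells with at least 24 assays. That is 94.4% (72.7 to 99.9%) against 50% (29.1 to 70.9%), with median Ct of 22.1 and 22.01 where detected. Cd48, a leukocyte surface protein of the SLAM family, was in 18 of 18 against 21 of 24, and Runx1, a transcription factor of blood cell formation, in 16 of 18 against 15 of 24. After Cxcr4, the widest positive differences of the panel in this class were those of Thy1, a surface glycoprotein, at 88.9% against 45.8%, and of Dppiv, the dipeptidyl peptidase CD26, at 94.4% against 58.3%, both named after their values were seen. The sets shared the sign for both, with 51.5 and 32.95 points for Thy1 and 36.2 and 36.4 for Dppiv. Kit, the stem cell factor receptor, was in 9 of 18 against 12 of 24, and Ccr2, a chemokine receptor of monocytes, in the same numbers. Median yields were 36.5 assays in cycling cells (30 to 43) and 31 in the other cells (24 to 70), so the other cells were the more mixed in yield.

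Other genes were missing from these cells. Cd34, a surface marker of blood progenitors, endothelium and fibroblasts, was in 0 of 18 cycling cells (a count of 0 that allows up to 16.7%, exact bound 18.5%) against 7 of 24 others. The same 0 of 18 held for Ackr3, the atypical Cxcl12 receptor (5 of 24 others), and for the myeloid markers Itgam (5 of 24) and Adgre1 (6 of 24). Fgfr1, a fibroblast growth factor receptor, was in 1 of 18 against 14 of 24, and Igf1r, the insulin-like growth factor 1 receptor, in 1 of 18 against 12 of 24. Col1a1 was found in 9 of 18, late, at Ct 18.04 to 21.2, against 11 of 24 at 17.04 to 21.7.

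**Figure D5:**
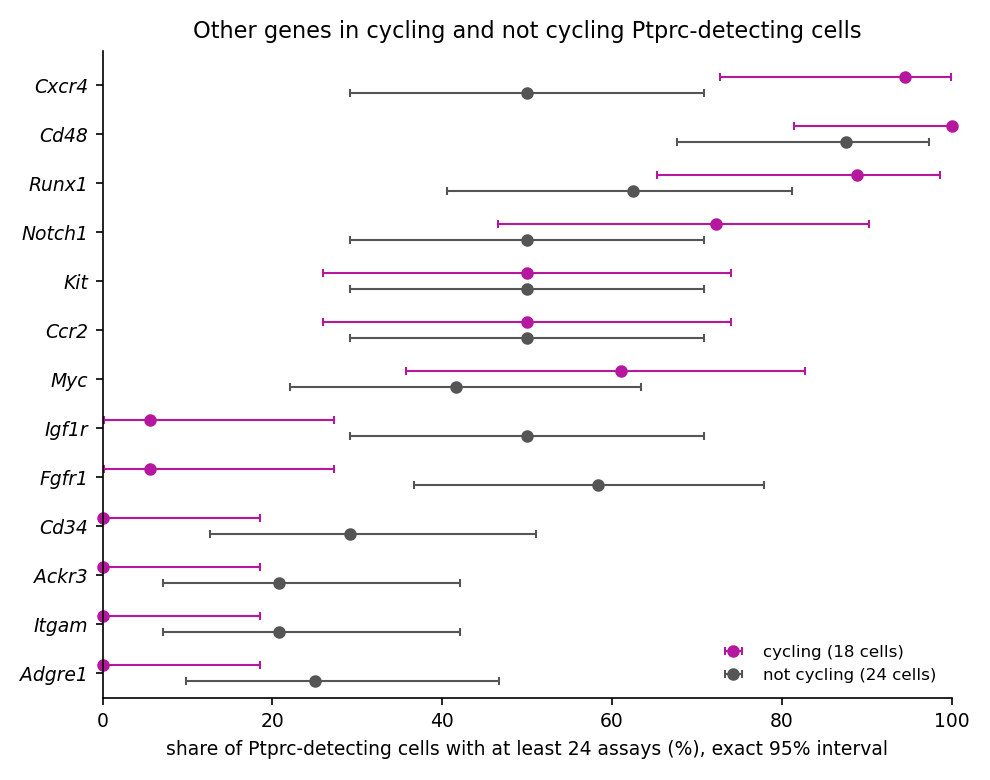
Share (%) of Ptprc-detecting cells with at least 24 assays that detect each of 13 other genes, cycling cells above the other cells, with exact 95% intervals. Intervals are apart for Cxcr4, Igf1r and Fgfr1 and overlap for the other 10 genes. Kit and Ccr2 stand at 50% in both. Several of the genes were picked for their difference between cycling and other cells of these data, so intervals that lie apart are no independent support.

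Gene lists were then compared over all 95 cells with at least 24 assays. Of the 94 assays compared between cycling and other cells, 8 were higher and 34 lower, with a median of -6.37 points. Mesenchymal markers were lower in 5 of 6, led by Pdgfra (17.4% against 62.5%), and growth factor receptors in 7 of 9, led by Fgfr1 (21.7% against 77.8%). Of the 5 blood markers 2 were higher, Cd48 (91.3% against 58.3%) and Ptprc (86.96% against 73.6%). The growth and survival signalling list had 0 of 7 higher and 2 lower, Igf1r (17.4% against 69.4%) and Igf1 (8.70% against 48.6%). Myc, a growth-promoting transcription factor, was at 69.6% against 75%. The self-renewal list had 2 of 7 higher, Notch1 (69.6% against 45.8%) and Sox2 (86.96% against 75%).

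Endothelial markers were lower in 3 of 5, with Tek the furthest (0 of 23 cycling cells, which allows up to 13.04%, against 31.9% of the others). None of the 3 myeloid markers met the rule. Within Ptprc-detecting cells the mesenchymal list had 0 of 6 either way, Runx1 and Cd48 of the blood markers were higher, and 2 of 9 growth factor receptors, Fgfr1 and Igf1r, were lower. Myeloid markers were lower in 2 of 3 there. Of all 94 assays, 11.7% were higher and 19.1% lower in that class, with a median of -1.39 points. The growth factor receptors were thus lower about as often as the panel.

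Genes with the most similar pattern of detection were sought by phi over the 95 cells with at least 24 assays. After Birc5, Mki67 was most like Cxcr4 (phi 0.39, and 0.43 over the 170 kept cells) and Cd48 (0.32 and 0.40). Birc5 was most like Mki67, then Cxcr4 (0.42 and 0.46) and Notch1 (0.28 and 0.34). Ccnd1 was most like the integrin gene Itga5 (0.40 and 0.49), then Fgfr1 (0.30 and 0.31) and Cd34 (0.27 and 0.39), all 3 more often detected in collagen-high than in Ptprc-detecting cells (for Itga5 93.5% against 30.95%). Bcl2 had no close partner, with Col3a1 at 0.20, Ctnnb1 at 0.19 and Col1a1 at 0.19. For Pcna the values (Runx1 0.34, Myc 0.25, Icam1 0.24) rest on the 2 of 95 cells that did not detect it. These coefficients describe cells that share chips and differ in yield, and carry no test.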

How the data were processed

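The authors deposited 1 table, described as not normalized, assays in rows and cells in columns; it names no unit, and its values, 4.49 to 40, were read as raw Ct. The sources used here do not state instrument, threshold or preamplification. The labels gave genotype, set and cell number, and no values were left unused. Gene names matched RefSeq symbols (GRCm38.p6) for 88 assays and synonyms for 5. Promoter sequences matched 4 of the 5 members. The members, lists and rules were chosen with earlier results of these data known. Named beside the members were the 3 assays with the highest phi for each, among assays detected in 10% to 90% of cells. Up to 3 genes per list with the largest difference between cycling and other cells were also named. Ackr3, among the 3 assays with the lowest phi for cycling cells, and Thy1 and Dppiv were named outside these rules. The lists were growth and survival signalling, self-renewal, growth factor receptors, and mesenchymal, blood, myeloid, endothelial and epithelial markers. The 1 epithelial marker measured, Trp63, met no rule. Levels are medians of Ct without normalization. Alternatives were Ct limits of 30 and 25, other cell filters, other class and cycling definitions and each set alone. The functions were tested on simulated data. Python 3.11.15, NumPy 2.4.6, pandas 2.3.3, SciPy 1.17.1, statsmodels 0.14.6 and matplotlib 3.10.9 were used.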

Additional observations from a re-analysis of the deposited data

How the results depend on the processing

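Of 190 alternative values for 22 results, 180 kept the sign of the value reported. Of the 190, 174 stayed within its 95% interval, its 1.5-fold range (counts) or 1 SD (levels). The interval used here was Newcombe's, for a difference between shares, and not the exact one printed with single shares. The Mki67 difference between EKO and WT in Ptprc-detecting cells met the size rule with at least 10 assays (16.1 points) and was -3.57 with at least 24. With at least 24 assays the collagen-high minus Ptprc-detecting difference in cycling share widened to -34.2 points. Of these classes that filter removed only Ptprc-detecting cells that were not cycling. In set B alone Birc5 was 94.5 points more frequent with Mki67 than without. In collagen-high cells alone the Bcl2 difference between cycling and other cells shrank to 4.76 points, on 4 cycling cells. The number of members higher in EKO was 2 at a Ct limit of 25 and 2 in cells that detect both Actb and B2m. In set A alone it was 4, by the size of 10 points only, since the sign rule needs both sets. The panel shares at these settings are not given, so these counts are not read as a result about the members. The Ccnd1 difference between EKO and WT, 7.02 points over all kept cells, was -28.6 in Ptprc-detecting cells with at least 24 assays, a setting chosen after seeing the data. With no filter on cells the Pcna difference turned to -11.5 points, since 19 EKO and 3 WT cells of low yield entered. The cause of the other shifts was not tested. No paired analysis was possible because the labels give no animals and no replicate numbers that the genotypes share. The number of cells limits the precision, with 23 cycling cells in all.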
